A study of Mus musculus with 18 samples.

Results

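The Fc gamma receptors of the mouse and the common gamma chain, 5 genes of the 20352 measured, were followed in demyelinated white matter with and without Trem2. The members are Fcer1g, which encodes the common chain, the receptor genes Fcgr1, Fcgr3 and Fcgr4, which signal through it, and Fcgr2b, the inhibitory receptor gene. They were chosen by name, as every probe set of the array annotated to exactly 1 of these symbols or an older synonym. Each gene was summarised per array as the median log2 value of its probe sets. Genes in the lowest 20% by mean level over all arrays (log2 3.41 or less) were left out, and all 5 are among the 16281 genes tested. Fcgr4 passed this filter only through its KO arrays, with a mean of 3.12 in WT and 3.88 in KO, so its selection favoured a difference between genotypes, and counts over the 5 genes are given as description only.

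Fc gamma receptors bind the constant part of immunoglobulin G and let phagocytes take up antibody-coated material. The activating receptors carry no signalling motif of their own and depend on the common chain, whose immunoreceptor tyrosine-based activation motif (ITAM) is phosphorylated by Src family kinases and then recruits Syk. Fcgr2b carries an inhibitory motif instead and recruits phosphatases, chiefly the one encoded by Inpp5d. In brain these genes are mainly expressed by microglia and macrophages, the cells that also express Trem2, a lipid-sensing receptor that signals through a related adaptor, Tyrobp.

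RNA came from the caudal corpus callosum of C57BL/6 mice that received chow with 0.2% CPZ (cuprizone), a copper-binding compound under which oligodendrocytes die and myelin is lost. The 18 one-colour arrays form 4 groups: 4 wild-type (WT) and 3 Trem2-deficient (TREM2-/-, here KO) arrays at the 6 weeks stage, and 5 WT and 6 KO arrays at the 12 weeks stage. All groups received CPZ, and no array without it is used here, so no level can be set against untreated tissue. The labels do not settle whether the stage is the length of feeding or the age of the mice. They also do not tie each array to its own animal, so the p-values measure the spread between arrays, which may be technical.

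The sequences just before the gene starts are shown for the 3 receptor genes with a match to a motif of the myeloid or interferon-responsive kind, because the results below set the receptors beside myeloid and interferon-responsive genes. Each is the 250 bases before the start in RefSeq, build GRCm38.p6, written 5′ to 3′ on the strand of the gene. Fcgr1 is at chr3:96293970-96294219 on the minus strand, Fcgr3 at chr1:171059404-171059653 on the minus strand and Fcgr4 at chr1:171018676-171018925 on the plus strand. Capitals mark the matches.
Fcgr1: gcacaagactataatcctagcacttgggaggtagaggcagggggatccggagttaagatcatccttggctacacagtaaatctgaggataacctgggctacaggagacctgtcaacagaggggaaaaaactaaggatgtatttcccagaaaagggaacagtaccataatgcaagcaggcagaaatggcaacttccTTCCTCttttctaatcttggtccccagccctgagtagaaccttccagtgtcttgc
Fcgr3: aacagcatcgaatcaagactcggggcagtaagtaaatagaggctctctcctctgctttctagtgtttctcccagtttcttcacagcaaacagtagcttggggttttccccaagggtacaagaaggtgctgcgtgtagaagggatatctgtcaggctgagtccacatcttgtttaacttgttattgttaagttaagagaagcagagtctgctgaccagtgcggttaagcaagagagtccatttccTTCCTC
Fcgr4: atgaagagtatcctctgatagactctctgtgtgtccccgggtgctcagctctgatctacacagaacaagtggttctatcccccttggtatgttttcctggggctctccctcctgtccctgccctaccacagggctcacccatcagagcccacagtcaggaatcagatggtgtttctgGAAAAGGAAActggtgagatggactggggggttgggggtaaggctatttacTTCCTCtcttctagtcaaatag
Both strands were searched for the letters GAGGAA (the core bound by PU.1, a myeloid factor), and for an interferon-stimulated response element (ISRE), given as the letters GAAA repeated after a gap of any 2 bases. No match overlapped another. The PU.1 core, read as TTCCTC on this strand, lies 55 to 50 bases before the Fcgr1 start. The Fcgr3 window has the PU.1 core in its last 6 bases. RefSeq lists 2 windows for Fcgr3, of which the first is shown. The Fcgr4 window has the ISRE letters GAAAAGGAAA 73 to 64 bases before the start and the PU.1 core 22 to 17 bases before it. The windows of Fcer1g and Fcgr2b hold none of these letters. Other motifs, also of the interferon-responsive kind, were not searched for. Of 32851 windows of this length, 2.98% hold the ISRE letters and 23.3% the PU.1 core, so a match is a description and not a binding site. Fcgr2b, Fcgr4 and Fcgr3 follow each other on chromosome 1 with 0 other coding genes between them, Fcer1g lies 7 coding genes beyond Fcgr3, and Fcgr1 is on chromosome 3.

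The targeted gene went with the labels. Trem2 was lower in every KO array than in every WT array of its stage, by a log2 difference of -1.49 ± 0.36 (SE; limma adjusted p = 0.247) at 6 weeks and -2.09 ± 0.28 (limma adjusted p = 0.00251) at 12 weeks. Where its probes lie relative to the deleted part is not used here, and signal remained in KO. The brightest Trem2 probe set had a mean of 9.61 in KO and 11.13 in WT at 6 weeks. At 12 weeks these means were 9.12 and 11.01. The myelin genes Mbp (8.11 to 11.58), Mobp (7.41 to 11.19) and Mog (5.71 to 9.91) were measured in all 18 arrays. At 6 weeks 2 arrays stood apart in the limma array weights, WT replicate 4 (0.503) and KO replicate 2 (0.446), where the other 16 had 0.702 or more. KO replicate 2 had the highest value of all 18 arrays for each of the 5 members, and the difference of each member at 6 weeks is also given without these arrays.

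The 5 genes were higher in KO than in WT at both stages in the group means, by 1.3- to 2.08-fold at 6 weeks and by 1.59- to 1.93-fold at 12 weeks. At 6 weeks 0 of 5 passed the test across all genes (limma, Benjamini-Hochberg adjusted p under 0.05), where 0.043% of all genes passed, and 2 of 5 had an unadjusted p under 0.05 with a higher level, against 3.26% of all genes. The arrays of WT and KO overlapped for all 5 at 6 weeks, where 2.71% of all genes had every KO array above every WT array. At 12 weeks 0 of 5 passed against 0.43% of all genes (0.356% higher in KO), and 3 of 5 had an unadjusted p under 0.05 with a higher level against 6.87%. A log2 difference above 0 was found for 49.6% of all genes at 6 weeks and 52.4% at 12 weeks, and the median over the 5 genes was 0.62 and 0.68, beside 0.00 and 0.02 over all genes tested. Without the 2 arrays that stood apart, 3 of 5 were higher in KO at 6 weeks, 0 of 5 had an unadjusted p under 0.05 in limma, and the median was 0.04. In tissue of many cell types, more cells of a type and more RNA per cell cannot be told apart.

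**Figure D1:**
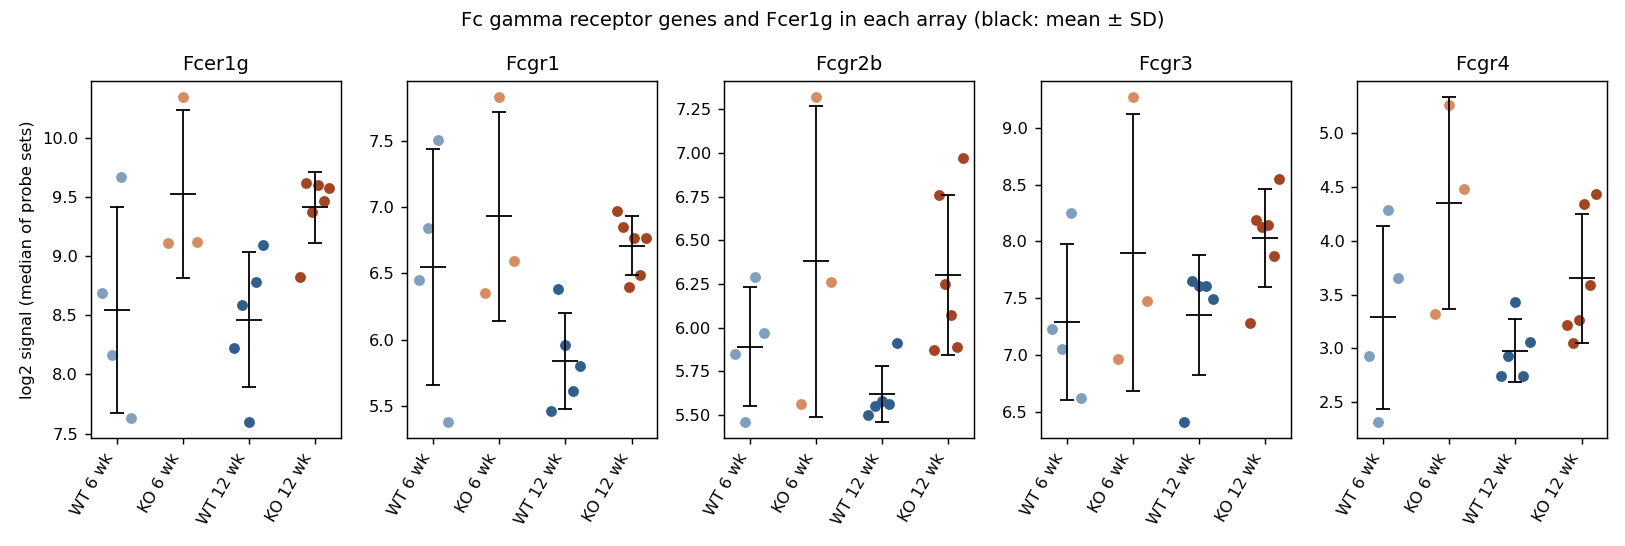
Log2 value of each of the 5 genes in every array (points) with the group mean and SD (bars), by genotype and stage. The KO means lie above the WT means in each panel, with Fcgr1 at 12 weeks the 1 case in which the arrays do not overlap (WT 5.46 to 6.38, KO 6.4 to 6.97).

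Fcer1g, the common chain that the activating receptors need for surface expression and signalling, was at log2 8.69, 8.16, 9.67 and 7.63 in the WT arrays of 6 weeks and at 9.11, 10.34 and 9.12 in the KO arrays. Of the KO arrays 1 was above all WT arrays, and the other two were above 3 of the 4, with WT replicate 3 between. The difference was 0.99 ± 0.41 (SE; 95% interval 0.13 to 1.85, 1.98-fold; limma adjusted p = 0.841; exact permutation p = 0.2, two-sided, of which the smallest possible is 0.0286). At 12 weeks the WT arrays were at 8.22, 8.59, 7.6, 8.78 and 9.09, and the 6 KO arrays ran from 8.82 through a median of 9.51 to 9.62. Of the KO arrays 5 of 6 were above all WT arrays, and replicate 1 lay among the WT values. The difference was 0.95 ± 0.33 (95% interval 0.27 to 1.63, 1.93-fold; limma adjusted p = 0.263; exact permutation p = 0.00649, two-sided, smallest possible 0.00216). The order of the group means was KO at 6 weeks (9.52 ± 0.71, SD), KO at 12 weeks (9.41 ± 0.30), WT at 6 weeks (8.54 ± 0.87) and WT at 12 weeks (8.46 ± 0.57), and within a genotype the stages differed by less than their spread. Without the 2 arrays that stood apart the difference at 6 weeks was 0.28.

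Fcgr1 encodes the high-affinity receptor, which binds monomeric immunoglobulin G. Its WT arrays of 6 weeks were at 6.45, 6.84, 7.51 and 5.38 and its KO arrays at 6.35, 7.83 and 6.59. These overlapped widely, and the difference of 0.38 ± 0.39 (95% interval -0.43 to 1.19; limma adjusted p = 0.999; exact permutation p = 0.571) was within the spread, with 1 of 3 KO arrays above the WT median. It was -0.07 without KO replicate 2, -0.01 without WT replicate 4 and -0.46 without both, so its direction at 6 weeks rests on these arrays. At 12 weeks the WT arrays were at 5.46, 6.38, 5.96, 5.61 and 5.8, and the KO arrays ran from 6.4 through 6.77 to 6.97. All 6 KO arrays were above all 5 WT arrays, a separation found with KO higher in 1.7% of all genes. The difference was 0.87 ± 0.31 (95% interval 0.23 to 1.51, 1.83-fold; limma adjusted p = 0.282), and the exact permutation p was 0.00216, the smallest that 462 arrangements allow. Fitted on the 12 week arrays alone the same difference passed (SE 0.184, limma adjusted p = 0.0275), where 233 genes passed in place of 70. Without the 2 arrays of 6 weeks that stood apart it passed as well (SE 0.202, limma adjusted p = 0.039), with 215 genes passing. The order was KO at 6 weeks (6.93 ± 0.79), KO at 12 weeks (6.71 ± 0.22), WT at 6 weeks (6.55 ± 0.89) and WT at 12 weeks (5.84 ± 0.36), and each neighbouring pair differed by less than the larger of its SDs.

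Fcgr2b, the inhibitory receptor, was at 5.85, 5.46, 6.29 and 5.97 in the WT arrays of 6 weeks and at 5.56, 7.32 and 6.26 in the KO arrays. KO replicate 2 was the single array above the WT range. The difference was 0.49 ± 0.33 (95% interval -0.21 to 1.19; limma adjusted p = 0.999; exact permutation p = 0.4, 2 of 3 KO arrays above the WT median), and it was 0.02 without KO replicate 2 and 0.04 without both arrays that stood apart. At 12 weeks the WT arrays were at 5.5, 5.55, 5.58, 5.56 and 5.91, and the KO arrays ran from 5.87 through 6.16 to 6.97. The WT arrays lay close together apart from replicate 5, and 4 of 6 KO arrays were above all of them. The difference was 0.68 ± 0.27 (95% interval 0.13 to 1.24, 1.61-fold; limma adjusted p = 0.342; exact permutation p = 0.013). The group means were 6.38 ± 0.89 for KO and 5.89 ± 0.34 for WT at 6 weeks, and 6.30 ± 0.46 for KO and 5.62 ± 0.16 for WT at 12 weeks. In order, the KO means came first, 6 weeks before 12, and were within their spread of each other, then the WT means, also 6 weeks before 12.

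Fcgr3, a low-affinity activating receptor for immune complexes, was at 7.23, 7.05, 8.25 and 6.62 in the WT arrays of 6 weeks and at 6.96, 9.27 and 7.47 in the KO arrays. KO replicate 1 was below 3 of the 4 WT arrays, and KO replicate 2 was above all of them. The difference was 0.62 ± 0.46 (95% interval -0.34 to 1.57; limma adjusted p = 0.999; exact permutation p = 0.457, 2 of 3 KO arrays above the WT median), and it was -0.07 without KO replicate 2 and -0.29 without both arrays that stood apart. At 12 weeks the WT arrays were at 6.41, 7.65, 7.61, 7.61 and 7.49, and the KO arrays ran from 7.28 through 8.14 to 8.55. WT replicate 1 was low and KO replicate 1 was within the WT range, while the other 5 of 6 KO arrays were above all WT arrays. The difference was 0.67 ± 0.36 (95% interval -0.09 to 1.43, 1.6-fold; limma adjusted p = 0.506; exact permutation p = 0.0281). The order of the means was KO at 12 weeks (8.03 ± 0.43), KO at 6 weeks (7.90 ± 1.22), WT at 12 weeks (7.35 ± 0.53) and WT at 6 weeks (7.29 ± 0.69), and no neighbours differed by more than the larger of their SDs. The extracellular parts of Fcgr2b and Fcgr3 are nearly identical, and cross-hybridisation between their probes was not tested, so the split of signal between these genes is uncertain.

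Fcgr4, the activating receptor of intermediate affinity, was the member closest to the level under which genes were left out, so the size of its differences is uncertain. It passed the filter only through KO (3.12 in WT, 3.88 in KO), so its p-values are not read as support. Its WT arrays of 6 weeks were at 2.93, 2.32, 4.28 and 3.65 and its KO arrays at 3.32, 5.26 and 4.48. Of the KO arrays 2 of 3 were above all WT arrays. The difference was 1.06 ± 0.45 (95% interval 0.11 to 2.00, 2.08-fold; limma adjusted p = 0.844; exact permutation p = 0.2), and it was 0.72 without the 2 arrays that stood apart. At 12 weeks the WT arrays were at 2.74, 2.93, 3.43, 2.74 and 3.06, and the KO arrays ran from 3.05 through 3.42 to 4.43. Of the KO arrays 3 of 6 were above all WT arrays and the others lay within the WT range. The difference was 0.67 ± 0.36 (95% interval -0.08 to 1.42, 1.59-fold; limma adjusted p = 0.503; exact permutation p = 0.0476). The order was KO at 6 weeks (4.35 ± 0.98), KO at 12 weeks (3.65 ± 0.60), WT at 6 weeks (3.29 ± 0.85) and WT at 12 weeks (2.98 ± 0.29), and neighbours differed by less than the larger of their SDs.

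**Figure D2:**
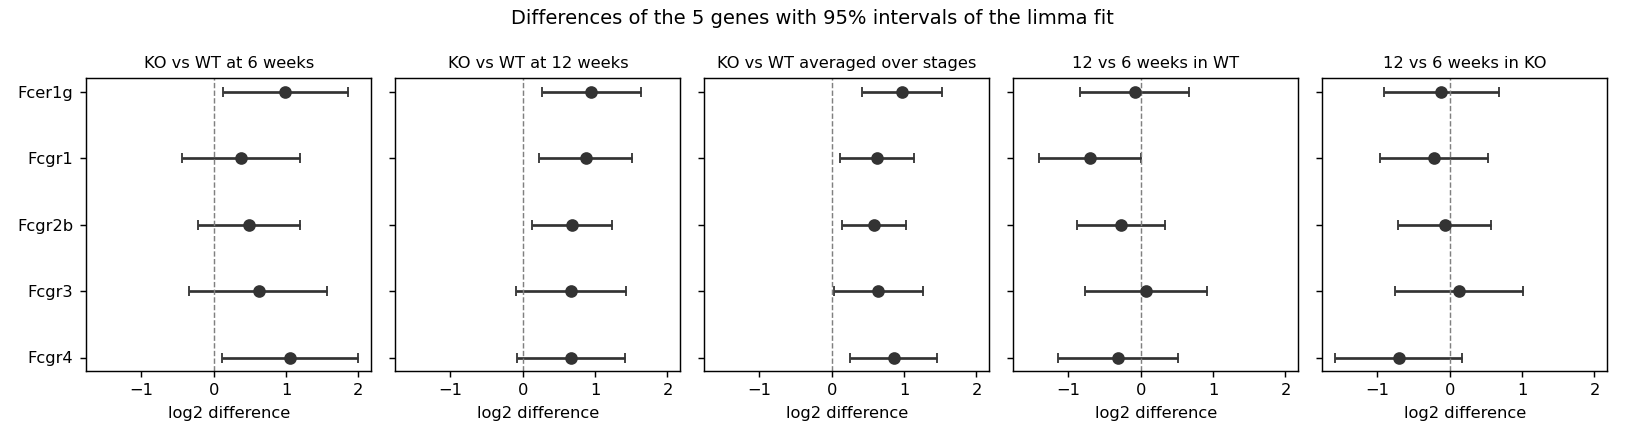
Log2 difference of each of the 5 genes, KO minus WT at 6 weeks, at 12 weeks and averaged over stages, and 12 minus 6 weeks in WT and in KO, with the 95% interval from limma. The 10 points of KO against WT at single stages lie above 0, from 0.38 (Fcgr1 at 6 weeks) to 1.06 (Fcgr4 at 6 weeks), and the intervals of 5 of them exclude 0 before adjustment.

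Averaged over both stages, the difference was 0.97 ± 0.26 for Fcer1g (limma adjusted p = 0.126), 0.62 ± 0.25 for Fcgr1 (0.408), 0.59 ± 0.21 for Fcgr2b (0.352), 0.64 ± 0.29 for Fcgr3 (0.508) and 0.86 ± 0.29 for Fcgr4 (0.276). Here 0 of 5 passed, against 0.669% of all genes. All 5 were higher in KO, as were 50.4% of all genes, and 5 of 5 had an unadjusted p under 0.05 with a higher level in KO, against 5.96%. The 5 include Fcgr4, which passed the filter only through KO, so these counts are description only. The exact permutation p, with labels exchanged within each stage, was 0.00742 for Fcer1g, 0.067 for Fcgr1, 0.023 for Fcgr2b, 0.0951 for Fcgr3 and 0.0318 for Fcgr4. These unadjusted counts rest in part on KO replicate 2 of 6 weeks: without it 2 of 5 had an unadjusted p under 0.05, and the average was 0.76 for Fcer1g, 0.40 for Fcgr1, 0.35 for Fcgr2b, 0.30 for Fcgr3 and 0.64 for Fcgr4. It was 3 of 5 without WT replicate 4 of 6 weeks and 2 of 5 without both. The average of Fcer1g passed when WT replicate 3 of 6 weeks was left out (1.16; limma adjusted p = 0.02), that array having the highest WT value.

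None of the 5 genes passed between the stages. In WT the difference of 12 from 6 weeks was -0.08 for Fcer1g, -0.70 for Fcgr1, -0.27 for Fcgr2b, 0.07 for Fcgr3 and -0.31 for Fcgr4, and 0 of 5 passed in limma against 0.0184% of all genes, with 0 of 5 at an unadjusted p under 0.05 against 8.48%. Fcgr1 had the largest of these differences, with a 95% interval of -1.41 to 0.01 and an exact permutation p of 0.151 (0 of 5 arrays of 12 weeks above the median of 6 weeks). In KO the differences were -0.12, -0.22, -0.07, 0.13 and -0.70 in the same order, and 0 of 5 passed in limma against 0.00614% of all genes, with 0 of 5 at an unadjusted p under 0.05 against 7.49%. These comparisons share their arrays with those between genotypes. The interaction, the KO minus WT difference at 12 weeks less that at 6 weeks, was -0.04 for Fcer1g, 0.49 for Fcgr1, 0.20 for Fcgr2b, 0.06 for Fcgr3 and -0.39 for Fcgr4. It passed for 0 of 5 and for 0% of all genes in limma (0 of 5 at an unadjusted p under 0.05 against 5.19%, which is 845 genes), and its 95% intervals were wide, from -0.54 to 1.52 for Fcgr1.

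The probe sets of a gene gave one direction in most cases. The 5 genes have 32 probe sets, of which 28 had a mean above the level of 3.41. KO was higher than WT in 30 of the 32 at 6 weeks (differences of -0.63 to 1.28) and in 27 at 12 weeks (-0.51 to 1.7). The share over all probe sets of the array was not counted, so the counts of probe sets are description only. Those of 6 weeks include KO replicate 2. Without that array 3 of the 5 genes were higher in KO at 6 weeks, and Fcgr1 and Fcgr3 each differed by -0.07. All 5 probe sets of Fcer1g were higher in KO at both stages (0.12 to 1.28 and 0.19 to 1.04). Of the 7 of Fcgr1 all were higher at 6 weeks and 6 at 12 weeks, with a range at 12 weeks of -0.15 to 1.7. Fcgr2b, with 11, had 9 and 8 higher, and Fcgr3, with 5, had 5 and 4. Of the 4 probe sets of Fcgr4 only 2 lay above the level, and all 4 were higher in KO, while the brightest (mean 5.11) differed by 0.77 at 6 weeks and by 0.24 at 12 weeks (limma adjusted p = 0.824 for the gene taken from that probe set).

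**Figure D3:**
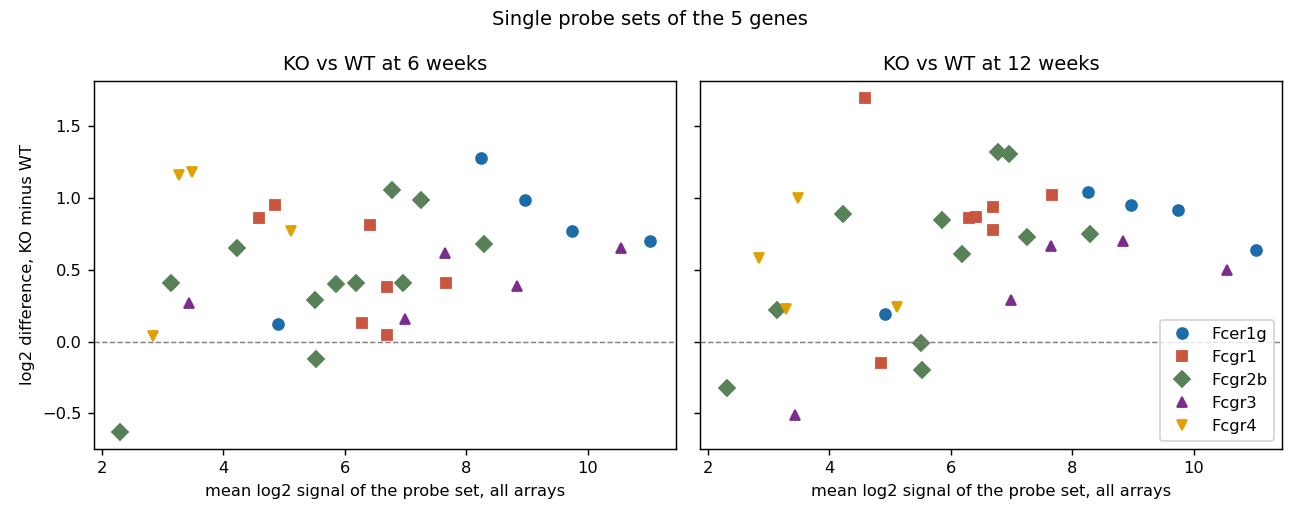
Log2 difference, KO minus WT, of every probe set of the 5 genes against its mean log2 level over the 18 arrays, for 6 weeks and 12 weeks, with a dashed line at 0. Most points lie above 0, and those below 0 belong to Fcgr1, Fcgr2b or Fcgr3.

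The activating receptors, the inhibitory receptor and the common chain had differences between genotypes of which no pair was told apart by a test. The difference between 2 members, tested for all 10 pairs at both stages with 20 exact permutation tests, had its lowest unadjusted p for Fcer1g against Fcgr1 at 6 weeks (0.61 larger for Fcer1g; exact p = 0.0286, adjusted over the 20 tests 0.571). At 12 weeks all pairs had a difference between 0.01 and 0.28, with adjusted exact p-values of 0.859 or more, and Fcgr2b exceeded Fcgr3 by 0.01. At 6 weeks, where the smallest possible exact p is 0.0286, an adjusted p under 0.05 would have needed at least 12 of the 20 tests at or under that value. These p-values do not show that the genes respond alike.

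Pan-myeloid genes were high in the same arrays as the 5 genes. A score of 20 pan-myeloid genes, the mean of each gene's deviation from its mean over all arrays, ran from -1.0 to 0.91 in WT and from -0.23 to 1.20 in KO at 6 weeks, and from -0.63 to -0.03 in WT and from -0.13 to 0.51 in KO at 12 weeks. All 20 were above the level of 3.41, 16 of 20 were higher in KO at each stage with a median difference of 0.52 and 0.54, and 0 passed at 6 weeks (limma; 7 at an unadjusted p under 0.05) and 2 at 12 weeks, Itgam (1.76 ± 0.27, adjusted p = 0.00553), the integrin subunit CD11b, and Laptm5 (1.54 ± 0.30, adjusted p = 0.0308), a lysosomal membrane protein of leukocytes. Laptm5 passed in 10 of 18 fits with 1 array left out and Itgam in 18. In 7 of these fits the array was of 6 weeks, so the 12 week difference could not change, only its SE. This holds for each count of such fits at 12 weeks below. At 6 weeks Itgam was 1.60 higher and Aif1, a calcium-binding protein of microglia, 1.36 higher, and neither passed. Without the 2 arrays that stood apart, 8 of 20 were higher in KO at 6 weeks and the median was -0.39. The highest score was in KO replicate 2 and the lowest in WT replicate 4, both of 6 weeks. Over the 18 arrays the correlation with the score, a description across arrays that share the score's groups, was 0.94 for Fcer1g, 0.84 for Fcgr1, 0.79 for Fcgr2b, 0.89 for Fcgr3 and 0.68 for Fcgr4, and within groups 0.93, 0.82, 0.69, 0.87 and 0.56. The part of the number of myeloid cells in the differences of the 5 genes was not tested.

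**Figure D4:**
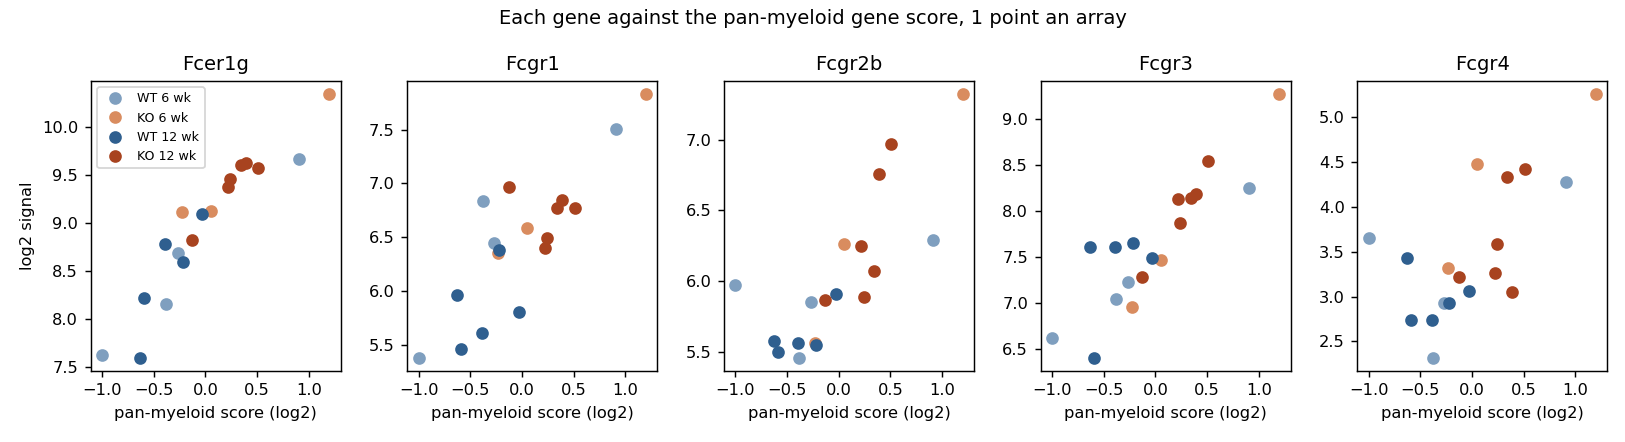
Log2 value of each of the 5 genes in every array against the pan-myeloid score of that array (mean deviation of 20 genes, log2), coloured by group. The correlation runs from 0.68 (Fcgr4) to 0.94 (Fcer1g), and KO replicate 2 of 6 weeks is at the upper right of each panel.

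Relative to that score, the differences between genotypes were as follows. Fcer1g was higher in KO by 0.46 at 6 weeks (exact permutation p = 0.0571) and by 0.32 at 12 weeks (exact permutation p = 0.0498), with p adjusted over 10 such tests of 0.286 at both. At 12 weeks the values were 0.23 for Fcgr1, 0.05 for Fcgr2b, 0.04 for Fcgr3 and 0.03 for Fcgr4, and at 6 weeks -0.15, -0.04, 0.09 and 0.53, all with an adjusted exact permutation p of 0.886. A test at 6 weeks could have passed only if at least 6 of the 10 were at or under 0.0286, so the 6 week values are in effect without a test.

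The genes around the receptors in the pathway were taken from lists. Of 13 other Fc receptor genes 6 were tested, and Fcrls, an Fc receptor-like gene of microglia, was 2.13 ± 0.41 higher in KO at 12 weeks (limma adjusted p = 0.0287) and 2.30 higher at 6 weeks (adjusted p = 0.214), while 0 of 6 passed at 6 weeks (3 unadjusted) and the median was 0.39 and 0.22. With 1 array left out Fcrls passed at 12 weeks in 9 of 18 fits, with an adjusted p of up to 0.0977. Among the fits without an array of 12 weeks, Fcrls passed only without WT replicate 2 and without KO replicate 1. Fcrl1, a receptor-like gene of B cells whose mean was under the filter's level in WT and above it in KO, was 0.86 higher at 6 weeks and did not pass. Fcgrt, the neonatal receptor that recycles immunoglobulin G, was 0.67 and 0.36 higher and did not pass. Fcer1a and Ms4a2, which with the common chain form the immunoglobulin E receptor, were both left out as low. Of the 6 tested genes of other signalling adaptors and of myeloid receptors, 0 passed at either stage (limma; 1 and 3 unadjusted). Tyrobp, the adaptor of Trem2, was 0.73 and 0.32 higher in KO, and Clec7a, a beta-glucan receptor, had a difference of -1.12 at 6 weeks (adjusted p = 0.919). At 12 weeks Clec5a, a lectin receptor of myeloid cells, was 1.28 higher (adjusted p = 0.231), and Oscar, a collagen receptor that signals through the common chain, had a difference of -0.48 (adjusted p = 0.407).

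Of 28 genes of ITAM signalling 0 passed at 6 weeks (limma; 2 unadjusted) and 1 at 12 weeks (11 unadjusted), where 21 and 19 were higher in KO and the median was 0.37 and 0.28. The kinase gene Prkcd was 1.36 ± 0.27 higher in KO at 12 weeks (adjusted p = 0.0293), and Pik3cg, a phosphoinositide kinase, 1.07 ± 0.24 higher averaged over stages (adjusted p = 0.0423). With 1 array left out Prkcd passed in 9 of 18 fits and Pik3cg in 4 of 18. At 6 weeks Pik3cg was 1.23 and Plcg2, a phospholipase downstream of Syk, 0.77 higher, and neither passed. Without the 2 arrays that stood apart the median of the 28 genes at 6 weeks was -0.03. Of 15 tested genes of inhibitory receptors, phosphatases and other negative regulators 0 passed at 6 weeks (limma; 4 unadjusted). At 12 weeks 1 passed, Cd33, a sialic acid-binding inhibitory receptor (1.31 ± 0.25, adjusted p = 0.0282, passing in 10 of 18 fits with 1 array left out). In KO 12 and 9 of the 15 were higher, with a median of 0.19 and 0.16. The inhibitory receptor gene Pirb was lower at both stages (-0.51 and -0.59). At 6 weeks Cd33 was 1.34 higher (adjusted p = 0.235). Inpp5d, the phosphatase recruited by Fcgr2b, was 1.21 higher at 6 weeks and did not pass (adjusted p = 0.654). Of the ligands, 7 of the immunoglobulin and pentraxin genes were measured and 4 tested, and 0 passed (limma; 0 at 6 and 1 at 12 weeks unadjusted). Ighm, the heavy chain of immunoglobulin M, was 1.21 ± 0.31 higher at 12 weeks (adjusted p = 0.0985), and at 6 weeks its difference was -0.20. The light chain gene Iglc2 was 0.51 and 0.57 higher, the pentraxin gene Ptx3 differed by 0.57 at 6 weeks and by -0.29 at 12 weeks, and these did not pass.

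Markers of other cells that carry these receptors gave the following values. Of 8 tested B and plasma cell genes 0 passed at either stage (limma; 1 and 1 unadjusted), and Tnfrsf17, a receptor of plasma cells, was 0.91 ± 0.18 higher in KO averaged over stages (adjusted p = 0.0143; 0.111 without the 2 arrays that stood apart). It was 1.00 and 0.82 higher at the single stages. Cd79b, of the B cell receptor, differed by 0.63 at 6 weeks and by -0.09 at 12 weeks. Sdc1, a plasma cell proteoglycan, differed by -0.23 and 0.33. At each stage 5 of the 8 genes were higher in KO, with a median of 0.09 and 0.11. Of the markers of neutrophils 6 of 11, of natural killer cells 7 of 10 and of mast cells 7 of 10 were at or below the level of 3.41, and the tested ones passed in 0 cases at either stage (limma; 1 and 2, 0 and 0, and 0 and 0 unadjusted). Among the neutrophil genes Lcn2 differed by -1.22 at 6 weeks and by 0.21 at 12 weeks, S100a8 by 0.90 and 0.03, and S100a9 by 0.61 and -0.92. Camp, which passed the filter only through WT (3.64 in WT, 3.36 in KO), differed by 0.08 and -0.54. Among the natural killer cell genes Nkg7 differed by 0.31 and 0.40 and Eomes by -0.32 and 0.14, and among the mast cell genes Kit by 0.39 and 0.09 and Hdc by 0.31 and 0.18. Of 9 tested genes of monocytes and border macrophages 0 passed at 6 weeks (limma; 4 unadjusted) and 1 at 12 weeks, Stab1, a scavenger receptor (1.00 ± 0.18, adjusted p = 0.0189), and Mrc1, the mannose receptor of border macrophages, had a difference of 1.27 ± 0.27 averaged over stages (adjusted p = 0.0277; 0.115 without the 2 arrays that stood apart). At 6 weeks Mrc1 was 1.16 higher and did not pass. Mrc1 passed the filter only through KO (3.30 in WT, 4.66 in KO), so its call is not read as support. Stab1 passed in 13 of 18 fits with 1 array left out, and at 6 weeks it was 0.85 higher and did not pass. Of the 9 genes 7 were higher in KO at each stage, with a median of 0.60 and 0.25. Ms4a7 was lower in KO at both stages (-0.48 and -0.23). Of the 12 genes measured 3 were at or below the level of 3.41. The part of these cells in the levels of the 5 genes was not tested.

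Among genes of the homeostatic state of microglia 13 were tested, of which 4 passed as higher in KO than in WT at 6 weeks and 9 at 12 weeks, with a median of 1.59 and 1.47. The 4 of 6 weeks, which also passed at 12 weeks, were the purinergic receptor gene P2ry12 (2.47 ± 0.42, adjusted p = 0.0299, and 1.87 ± 0.33, adjusted p = 0.0208; limma), Siglech, a lectin of microglia (2.30 ± 0.34, adjusted p = 0.0116, and 2.38 ± 0.27, adjusted p = 0.000283), P2ry13, a related purinergic receptor (2.19 ± 0.31, adjusted p = 0.0112, and 1.70 ± 0.24, adjusted p = 0.0038), and Crybb1, a crystallin gene (1.75 ± 0.27, adjusted p = 0.0116, and 1.23 ± 0.21, adjusted p = 0.0137). The calls at 6 weeks depend on single arrays: 0 of the 13 passed without WT replicate 1 of 6 weeks, 1 without WT replicate 2, 1 without KO replicate 2 and 3 without KO replicate 3 of that stage or KO replicate 3 of 12 weeks, while 4 passed without both arrays that stood apart, with a median of 1.18. Each of the 9 called at 12 weeks passed in 6 to 18 of the 18 fits with 1 array left out, of which 7 left the 12 week arrays untouched. These calls also depend on single arrays: 3 of the 13 passed without WT replicate 1, 3 or 4 or without KO replicate 2 of 12 weeks. Of 18 interferon-responsive genes 0 passed at 6 weeks (limma; 5 unadjusted) and 4 passed as higher in KO than in WT at 12 weeks. The median was 0.63 and 0.82, and all 18 were higher in KO at both stages. The 4 were Rtp4 (2.37 ± 0.23, adjusted p = 4.15e-05), a chaperone for membrane receptors, the antiviral genes Ifit3 (1.30 ± 0.20, adjusted p = 0.00553) and Ifit1 (1.62 ± 0.33, adjusted p = 0.0355), and Bst2 (1.38 ± 0.29, adjusted p = 0.0382), which tethers virus particles. With 1 array left out Rtp4 and Ifit3 passed in 18 of 18 fits, Ifit1 in 10 and Bst2 in 9. At 6 weeks Rtp4 was 1.21 and Ifit3 1.10 higher and neither passed, and without the 2 arrays that stood apart 15 of 18 genes were higher, with a median of 0.28. Between the stages 17 of the 18 were lower at 12 than at 6 weeks in each genotype. Of these Rtp4 passed in WT (-1.71 ± 0.26, limma adjusted p = 0.0149) and 0 passed in KO.

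**Figure D5:**
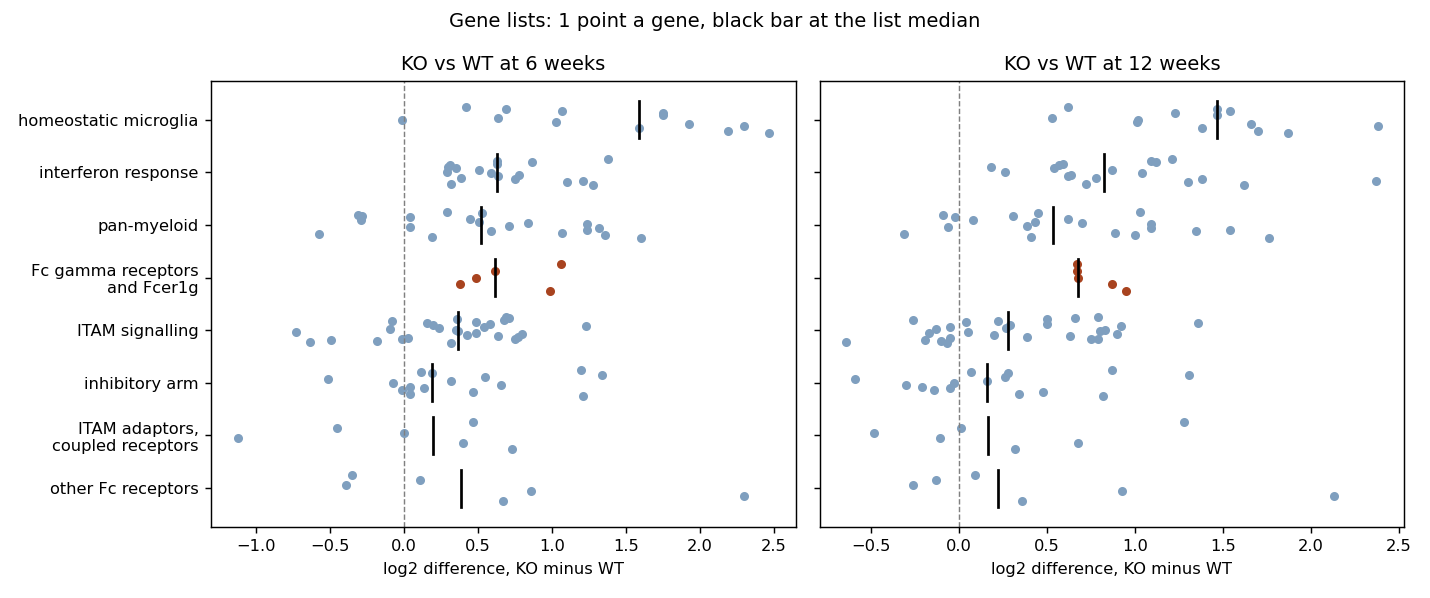
Log2 difference, KO minus WT, of each tested gene (points) among the 5 genes (red) and in the 7 lists of homeostatic, interferon-responsive, pan-myeloid and pathway genes (blue) at 6 and 12 weeks, with a black bar at the median of each. The 5 genes, at medians of 0.62 and 0.68, lie between those of the pan-myeloid list (0.52 and 0.54) and the interferon list (0.63 and 0.82), and below that of the homeostatic microglia list (1.59 and 1.47).

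The genes whose values went most closely with each member over the 18 arrays, by Pearson r, differed from member to member. They were ranked among the genes tested, with predicted genes and those with clone names left out. For Fcer1g they were Cd53 (0.942), Ctss (0.938), Fcrls (0.929), Cebpa (0.915) and Lair1 (0.915). For Fcgr1 they were Btk (0.902), Dock2 (0.888), Lcp2 (0.867), Ikzf1 (0.853) and Pros1 (0.848), and for Fcgr2b Git2 (0.896), Gbp6 (0.894), Gem (0.886), Fbln1 (0.883) and Cp (0.881). For Fcgr3 they were Mfsd1 (0.921), Abca9 (0.908), Nckap1l (0.900), Snx5 (0.897) and Anxa3 (0.893), and for Fcgr4 Sp100 (0.896), Clic1 (0.891), Ctsl (0.882), Eif2ak2 (0.870) and Man2b1 (0.869). The points share the 18 arrays and their groups, and Cd53, Ctss and Dock2 are among the 20 pan-myeloid genes.

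Among themselves the 5 genes varied together across arrays. Over 18 arrays the 10 pairs had a Pearson r from 0.56 (Fcgr1 with Fcgr4; permutation p adjusted over the 10 pairs 0.016) to 0.80 (Fcer1g with Fcgr3, Spearman rho 0.79, and Fcgr2b with Fcgr3, rho 0.71; both with an adjusted permutation p of 0.0004). The permutation p of r passed in 10 of 10 pairs and that of rho in 9 of 10, the exception being Fcgr1 with Fcgr4 (rho 0.36; permutation p = 0.14). Without the 2 arrays farthest from the median of the first gene r was 0.44 (Fcgr3 with Fcgr4) to 0.89 (Fcer1g with Fcgr3), and within groups it was 0.36 to 0.77. The permutations exchanged arrays between groups, so their p-values in part measure differences between groups that the genes share. The r within groups has no test. For Fcgr2b with Fcgr3 the part of cross-hybridisation was not tested.

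The direction at 12 weeks held within each sex, as told by Xist and genes of the Y chromosome, and within each of the 2 runs of consecutive sample numbers in which these arrays were deposited. The difference was 0.78 in males and 1.14 in females for Fcer1g, 0.95 and 0.76 for Fcgr1, 0.61 and 0.79 for Fcgr2b, 0.30 and 1.16 for Fcgr3, and 0.10 and 1.28 for Fcgr4. In the first and second run it was 0.86 and 1.05 for Fcer1g, 0.82 and 0.89 for Fcgr1, 0.77 and 0.63 for Fcgr2b, 0.84 and 0.62 for Fcgr3, and 0.34 and 1.04 for Fcgr4. Each of these values rests on 2 or 3 arrays a genotype and has no test, and within a run the genotypes were of opposite sex, while within a sex they came from different runs. Genotype therefore cannot be told apart from sex within a run, or from run within a sex.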

How the data were processed

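Per the labels' protocols, column-purified RNA was amplified and carried a biotin label. The 18 arrays were used as the log2 values of 241576 probe sets that the authors deposited. Background correction, normalization and the software are not given in the sources used here. The median log2 value lay between 5.26 and 5.41 in every array, and no further normalization was done. Of the probe sets 212097 had 1 symbol, 4475 several and 25004 none. Symbols were updated through a RefSeq table of GRCm38.p6 (17621 current, 2742 updated, 53 kept), and promoter windows came from RefSeq of that build. Genes were tested with limma 3.58.1 (R 4.3.3), all 4 groups in 1 fit, Benjamini-Hochberg over 16281 genes, after tests on simulated data, and single values with exact permutation tests (scipy 1.17.1). Replicate numbers did not pair arrays: same-numbered deviations correlated from -0.359 to 0.241. Correlations used 100000 permutations. Alternatives changed the filter, normalization, gene value, weights, covariates and arrays. Leaving out the 2 arrays that stood apart, and leaving out arrays for the lists, was added after seeing the data. The text names the 5 members, the 5 genes most correlated with each, and in each list, for each stage, the genes that passed (at most 4 by p) or otherwise the 2 with the smallest p, with some from the average over stages and single others chosen after their values were seen. The members and lists were chosen with earlier results of these data known. The number of arrays limits precision, and protein sequences were not used here.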

Additional observations from a re-analysis of the deposited data

Results flagged for a closer look

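Among 15 groups of 4 to 6 arrays of the 5 genes, 3 held an array far from the others, and chance alone gives about 1 such group in 20. In KO at 12 weeks, replicate 1 had the lowest Fcer1g value, 8.82, with the next at 9.37. In WT at 12 weeks, replicate 5 had the highest Fcgr2b value, 5.91, with the next at 5.58. In the same group, replicate 1 had the lowest Fcgr3 value, 6.41, with the next at 7.49.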

How the results depend on the processing

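No direction of a member at 12 weeks turned: 59 of 59 values under other settings (0.24 to 1.02) and 90 of 90 with 1 array left out (0.44 to 1.11) were above 0. At 6 weeks 57 of 59 (-0.46 to 1.17) and 87 of 90 (-0.07 to 1.57) were above 0, and averaged over stages 54 of 54 (0.19 to 0.98) and 90 of 90 (0.30 to 1.16). The counts for a single stage overstate its stability, because some fits repeat the same difference. Leaving out an array of the other stage (7 at 6 weeks, 11 at 12 weeks) cannot change it. Neither can another filter or the use of only the arrays compared. Fcgr1 at 12 weeks (0.87) passed with only the arrays compared and without WT array 4 and KO array 2 of 6 weeks, and Fcer1g averaged over stages ranged from 0.76 to 1.16 with 1 array left out, passing at the upper end. The count of all genes passing at 12 weeks, 70, was 42 after quantile normalization, 190 with array weights, 233 with only the arrays compared and 215 without those 2 arrays. At 6 weeks, 7 became 0 with only the arrays compared. Between stages in WT, 3 became 5 with the mean of probe sets, 1 with the brightest, 1 with only the arrays compared and 7 with sex as covariate. Between stages in KO, 1 became 3 with the mean, 3 with the brightest, 0 with only the arrays compared and 0 without those 2 arrays. The interaction count, 0, was 1 with probe sets above the level. Averaged over stages, 109 became 176 with the mean, 55 with the brightest and 55 without those 2 arrays. With the replicate number as a block, though the numbers pair nothing, the counts were 0 at 6 weeks, 21 at 12 weeks, 0 between stages in WT and 2 in KO. With 1 array left out they ran from 0 to 11 at 6 weeks, 15 (without WT replicate 3 of 12 weeks) to 126 (without KO replicate 2 of 6 weeks) at 12 weeks, 1 to 6 between stages in WT, 1 to 5 in KO and 44 (without KO replicate 2 of 6 weeks) to 185 averaged. Apart from fewer arrays or genes in a fit, the cause was not tested. The replicate block changed no call of a member.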
